A study of Homo sapiens with 12 samples.

Results

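MALL, MAL2 and PDZK1IP1 encode small membrane proteins linked to the apical surface of epithelial cells, and their transcripts were followed in 2 human lung cancer lines with and without HOXC6, a homeobox transcription factor. They are 3 of the 12584 genes in the count table. They were chosen by name as apical membrane proteins, and MALL and PDZK1IP1 also because both rose with HOXC6 in both lines, so that their differences between HOXC6 and NEO libraries were selected on these values and are given as a description, with no test. The comparison of the 2 control groups was not used in that choice and was tested.

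The libraries were made from A549 and PC9 cells, both non-small cell lung cancer lines, with 3 replicates in each of 4 groups and 12 libraries in all. A549-HOXC6 and PC9-HOXC6 cells carried a lentiviral vector expressing HOXC6, and A549-NEO and PC9-NEO cells carried the empty vector. All 4 groups were grown under neomycin. A549 and PC9 were kept in different media, so cell line and medium cannot be told apart in any comparison between them. The promoter that drove HOXC6 and the number of clones behind each line were not given in the sources used here. The replicates are called independent, without saying whether they were separate cultures or infections, and if they were not, p-values measure only the spread between these libraries, which may be technical. HOXC6 itself was not analysed here, so the labels could not be checked against the introduced gene. Library totals ran from 1212053 to 3286577 counts over the genes used here. Levels are CPM, counts scaled to the total of the library, after scaling by the TMM method, and 3 counts, taken as the floor of detection, equal 0.913 to 2.55 CPM in a library. The epithelial markers in the table (EPCAM, CDH1, KRT18 and KRT7, 4 of 8 listed) summed to between 7816 and 11661 CPM in every library, mostly KRT7 and KRT18. EPCAM itself had 6 to 20 counts in the A549 libraries and 226 to 514 in PC9. NKX2-1, the lung lineage factor, had at most 1 count in A549 and 13 in PC9, and the 9 lung genes listed summed to 135 to 260 CPM, mostly FOXA1 and FOXA2. Of the 7 fibroblast genes COL1A2, DCN and LUM never passed 3 counts, and the list summed to 19.5 to 77.8 CPM, mostly COL1A1. The 3 endothelial genes in the table summed to 6.39 CPM at most, in A549-HOXC6 replicate 3, and had 0 counts in the other A549 libraries. Of the leukocyte genes PTPRC had at most 4 counts, and with CD68 it summed to 6.45 to 23.98 CPM. Within A549, only HOXC6 replicate 3 held PTPRC counts. That library also differed most from its replicates, with a chi-square per degree of freedom, near 1 for counting noise alone, of 4.41 and 3.23. Other pairs of replicates were at 1.59 to 2.85.

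MALL and MAL2 belong to the MAL family, whose members span the membrane several times through a MARVEL domain and associate with cholesterol-rich membrane, or lipid rafts. MAL2 is needed for transcytosis, the route by which polarised cells carry proteins from the basolateral to the apical surface, and binds proteins of the TPD52 family. MALL, also called BENE, sits in raft membranes and was described beside caveolin. PDZK1IP1, also called MAP17, is a small protein of apical membranes, best known in the kidney, that binds PDZ scaffold proteins through its tail and serves as an accessory subunit of the glucose carrier SLC5A2.

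In the GENCODE annotation of GRCh37, MAL2 (ENSG00000147676) lies on chromosome 8 from 120177273 to 120257913 on the forward strand with 5 canonical exons. Its exons share 202 bp with the antisense gene MAL2-AS1, and the strand setting of the counting was not given in the sources used here.

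MALL (ENSG00000144063) occupies chromosome 2 from 110841447 to 110873599 on the reverse strand, and its canonical transcript has 4 exons. Its transcripts share 533 bp at 99.8% identity with a lncRNA gene (ENSG00000282304), and stretches of at least 100 bp at 95% identity or more with 3 other genes in all, among them the pseudogene MALLP1, so reads could be divided between copies and its counts are uncertain to that extent. PDZK1IP1 (ENSG00000162366) lies on chromosome 1 from 47649254 to 47656716 on the reverse strand with 4 canonical exons, and no other gene matched its transcripts by the same criterion. GC content was 51.1% for MALL, 39.6% for MAL2 and 58.7% for PDZK1IP1.

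Because MALL and PDZK1IP1 moved together with a homeobox factor, the 250 bases before their transcription starts are shown, from RefSeq on GRCh38.p14, a later build than that of the counts. The search covered TAAT, the core that homeodomains bind, and TGATTNAT, a joint site of HOX and PBX proteins, on both strands. Matches before the start of MAL2 are not reported here. Capitals mark every matched base. The MALL window is chr2:110118140-110118389 and belongs to the upstream of its 2 RefSeq starts, and the PDZK1IP1 window is chr1:47190037-47190286, both read 5′ to 3′ on the reverse strand.
MALL: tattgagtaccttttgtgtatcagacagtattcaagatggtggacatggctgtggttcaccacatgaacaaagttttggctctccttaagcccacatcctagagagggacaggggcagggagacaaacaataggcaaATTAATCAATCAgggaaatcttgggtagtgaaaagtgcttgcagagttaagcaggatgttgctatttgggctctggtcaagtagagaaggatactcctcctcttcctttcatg
PDZK1IP1: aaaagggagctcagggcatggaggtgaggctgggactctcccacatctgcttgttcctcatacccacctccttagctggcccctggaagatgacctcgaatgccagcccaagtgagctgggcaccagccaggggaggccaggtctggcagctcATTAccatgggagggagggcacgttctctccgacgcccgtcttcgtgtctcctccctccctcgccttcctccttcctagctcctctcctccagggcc
In MALL, 2 TAAT and 2 TGATTNAT matches overlapped one another between 113 and 102 bases before the start. PDZK1IP1 held 1 TAAT match, 97 to 94 bases before its start, and no TGATTNAT. The window of the other MALL start, chr2:110115823-110116072, held neither. Which of the 2 starts belongs to the canonical MALL transcript was not checked across the builds, and the start used in these cells was not measured. The matches therefore cannot be assigned to the MALL transcripts that were counted. Among 35116 RefSeq promoter windows of this length, 47.4% held TAAT and 2.48% held TGATTNAT. These matches describe letters in the windows, and binding was not measured.

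MALL was lowest in PC9-NEO and highest in A549-HOXC6. In A549-NEO it had 65, 73 and 66 counts, or 22.7, 29.4 and 26.0 CPM. In A549-HOXC6 it had 207, 80 and 104 counts, or 75.6, 68.1 and 55.4 CPM. Every A549-HOXC6 library lay above every A549-NEO library. In PC9-NEO it had 33, 30 and 43 counts, or 17.8, 15.1 and 18.2 CPM. In PC9-HOXC6 it had 75, 50 and 104 counts, or 36.0, 36.6 and 31.6 CPM. The PC9 groups did not overlap either. Ordered by mean ± SD (n = 3), the level was 66.4 ± 10.2 CPM in A549-HOXC6, 34.7 ± 2.71 in PC9-HOXC6, 26.0 ± 3.37 in A549-NEO and 17.0 ± 1.70 in PC9-NEO, and no pair of neighbouring groups in this order overlapped. The share of all genes whose groups lie apart like this was not counted, so group separation is given only as a description, here and below.

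PDZK1IP1 had 112, 96 and 102 counts in A549-NEO, or 39.0, 38.7 and 40.1 CPM. In A549-HOXC6 it had 202, 87 and 179 counts, or 73.8, 74.1 and 95.4 CPM. All A549-HOXC6 libraries were again above all A549-NEO libraries. In PC9-NEO it had 89, 103 and 103 counts, or 47.9, 51.7 and 43.6 CPM. In PC9-HOXC6 it had 183, 148 and 358 counts, or 87.8, 108 and 109 CPM. The order of the means ± SD was 102 ± 12.03 CPM in PC9-HOXC6, 81.1 ± 12.4 in A549-HOXC6, 47.7 ± 4.06 in PC9-NEO and 39.3 ± 0.753 in A549-NEO. Libraries of the 2 HOXC6 groups overlapped, while the HOXC6 and NEO libraries of each line were apart.

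MAL2 separated the lines. In A549 the NEO libraries held 0, 2 and 0 counts and the HOXC6 libraries 0, 2 and 0, at or under the floor in all 6. In PC9-NEO it had 702, 770 and 857 counts, or 378, 387 and 363 CPM. In PC9-HOXC6 it had 996, 674 and 1716 counts, or 478, 494 and 522 CPM. All PC9-HOXC6 libraries were above all PC9-NEO libraries, at means ± SD of 498 ± 22.4 and 376 ± 12.1 CPM (n = 3 each).

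**Figure D1:**
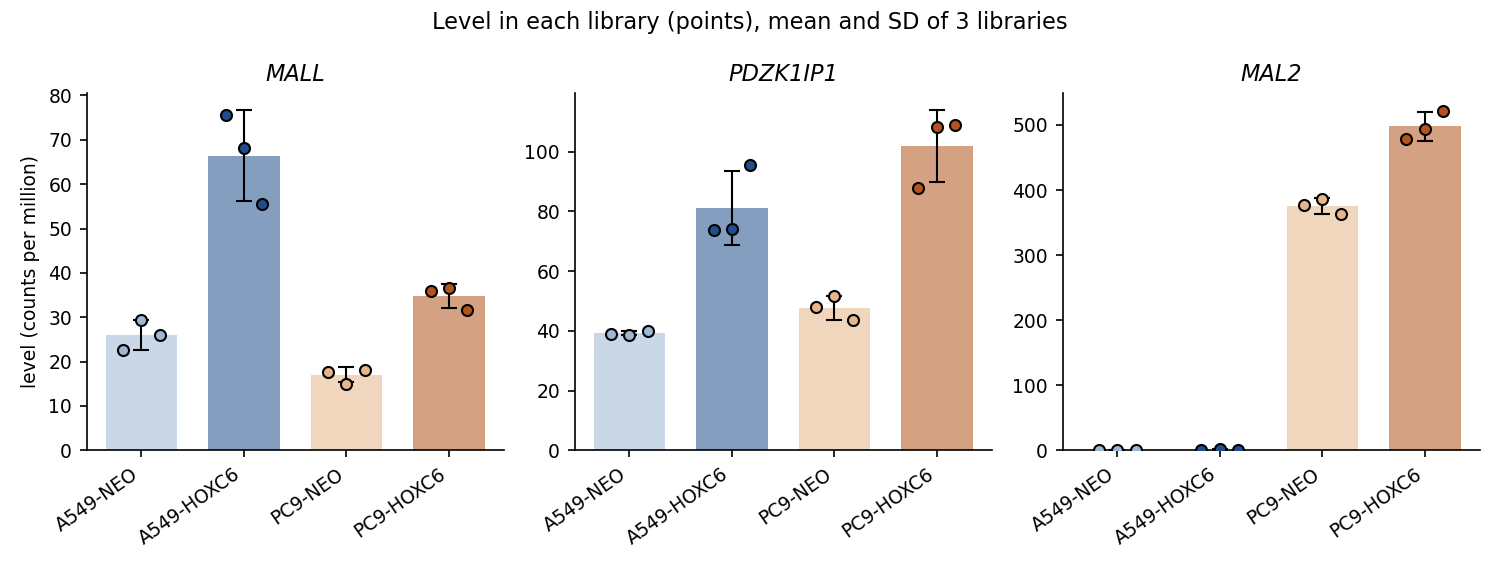
Level of MALL, PDZK1IP1 and MAL2 in CPM (vertical axes, linear from 0, a scale for each gene) in the 4 groups, with a point for each library, a bar for the mean and whiskers for the SD of 3 libraries. In both lines the HOXC6 libraries of MALL and PDZK1IP1 sit above the NEO libraries, and MAL2 is near 0 in all 6 A549 libraries against 363 to 522 CPM in PC9.

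Between genes, levels were compared per kilobase of merged exons. In PC9-NEO the level was 109 ± 3.51 CPM per kb for MAL2, 33.4 ± 2.84 for PDZK1IP1 and 6.48 ± 0.646 for MALL (SD, n = 3). In A549-NEO it was 27.5 ± 0.526 CPM per kb for PDZK1IP1 and 9.91 ± 1.28 for MALL, with MAL2 at the floor. With HOXC6, PDZK1IP1 was at 56.7 ± 8.66 CPM per kb in A549 and 71.1 ± 8.41 in PC9, MALL at 25.3 ± 3.89 and 13.2 ± 1.03, and MAL2 in PC9 at 145 ± 6.52. The order of the genes was thus MAL2, PDZK1IP1 and MALL in PC9, and PDZK1IP1 before MALL in A549. Per kilobase of the longest transcript, PDZK1IP1 was at 46.9 CPM per kb in A549-NEO and 57.0 in PC9-NEO, MAL2 in PC9-NEO at 133, and the order was the same.

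The first comparison asked how the transcripts differed between cells with the HOXC6 vector and cells with the empty vector. The log2 fold change (± SE) of MALL was 1.33 ± 0.167 in A549 and 1.01 ± 0.194 in PC9, that is 2.51-fold and 2.02-fold. For PDZK1IP1 it was 1.01 ± 0.142 in A549 and 1.10 ± 0.126 in PC9, or 2.01-fold and 2.14-fold. For MAL2 it was 0.41 ± 0.0663 in PC9, or 1.33-fold, and no fold is given in A549, where both groups were at the floor. Marker sums moved with HOXC6 in A549, with 8.26 to 10.8 CPM in NEO and 14.5 to 23.98 in HOXC6 libraries for PTPRC and CD68. The epithelial genes summed to 7816 to 8051 and 9269 to 11575 CPM, mostly KRT7 and KRT18. CDH1 went the other way in A549 (-0.43, adjusted p = 0.00305, edgeR's quasi-likelihood test), and EPCAM differed by -0.19 (adjusted p = 0.730). The lung genes summed to 135 to 144 and 198 to 260 CPM in A549, mostly FOXA2 and FOXA1. In PC9 they summed to 210 to 235 and 158 to 170 CPM, mostly FOXA1. NKX2-1 went the other way in PC9, with 0, 4 and 0 counts in NEO and 3, 3 and 13 in HOXC6 libraries. The part of these shifts in the results was not tested. In bulk RNA a higher level per cell and a larger share of expressing cells cannot be told apart. MALL had the rank of 64 from the largest rise among 8771 genes tested in A549 and of 84 among 8419 in PC9. PDZK1IP1 stood at 154 and 60, and MAL2 at 872 in PC9. High ranks of MALL and PDZK1IP1 came with their choice and are only a description.

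A log2 fold change above 1 together with an adjusted p under 0.05, the criteria of the study, was reached by 1.7% of the genes tested in A549 and 0.962% in PC9 for higher levels with HOXC6. In both lines at once the criteria, applied here with edgeR, were met by 6 of 7954 genes (0.0754%), namely CEACAM6, SGK1, SCNN1G, ENSG00000129270, MALL and PDZK1IP1. Nothing is read from the share, since the 2 members were chosen by it. The study itself used DESeq2. Its own list of genes raised in both lines also holds CEACAM6, SGK1, ENSG00000129270 and MALL, but not PDZK1IP1 or SCNN1G. With DESeq2 as run here, PDZK1IP1 was at 1.02 in A549. In PC9 only the 2 fits with the GC and length correction put it at or under 1. Why the lists differ was not tested. PDZK1IP1 in A549 and MALL in PC9 stood just inside the fold threshold, both at 1.01, and MAL2 in PC9 stood outside it at 0.41. Over 15 alternative analyses, the log2 fold change stayed above 1 in 15 for MALL and 6 for PDZK1IP1 in A549, and in 9 for MALL and 13 for PDZK1IP1 in PC9. It stayed above 0 in every one of them.

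**Figure D2:**
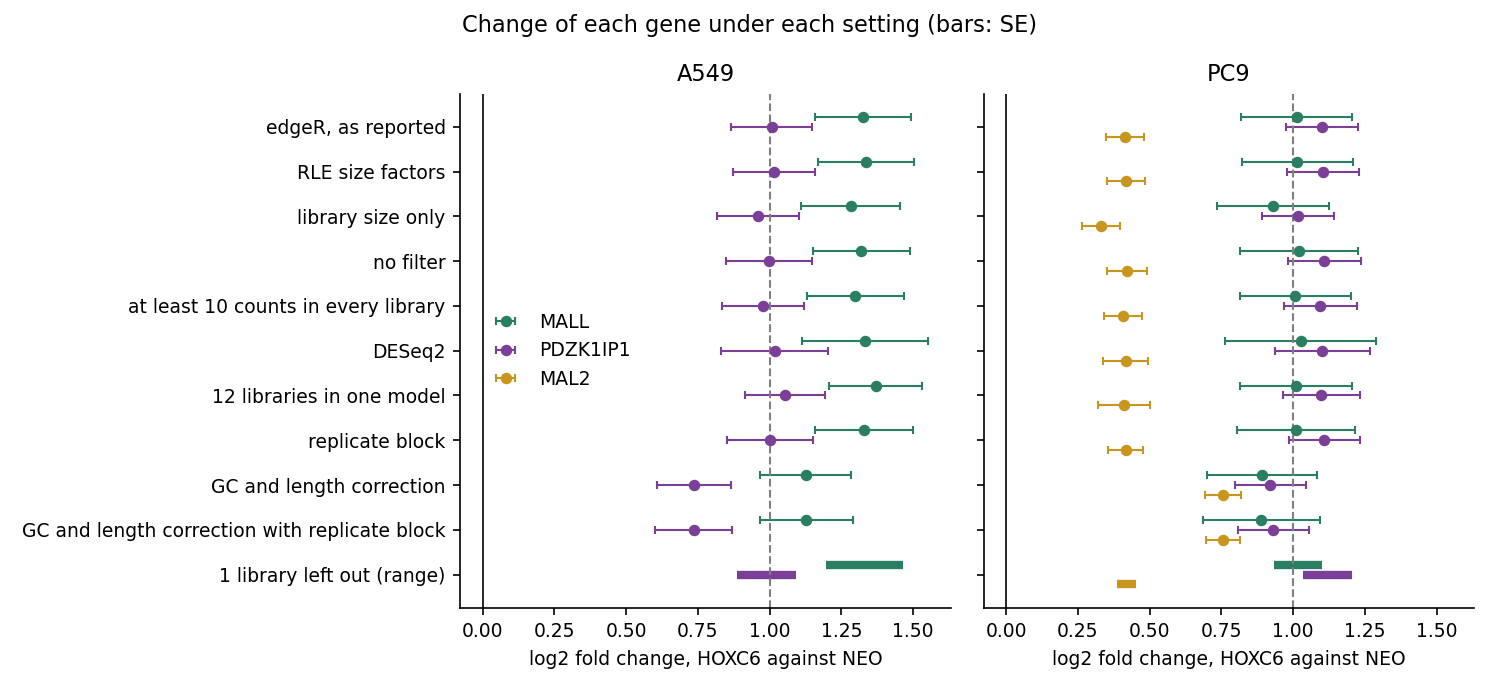
Log2 fold change of MALL, PDZK1IP1 and MAL2 between HOXC6 and NEO libraries (horizontal axis) in A549 and PC9 under each analysis (vertical axis), with points for estimates, whiskers for the SE, thick bars for the range over fits that left out 1 library, and a dashed line at 1. Most points of MALL in PC9 and PDZK1IP1 in A549 fall within 1 SE of the line, and the correction for GC content and length lowers MALL and PDZK1IP1 and raises MAL2 to 0.76.

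The size of the change in these libraries moved with the GC content of the transcripts. In A549 the median log2 fold change was -0.64 among the 872 genes lowest in GC content, bin 1 of 10, and 0.21 among the 872 highest. In PC9 the medians were -0.48 and 0.18. MALL lay in bin 6, whose medians were 0.14 in A549 and 0.09 in PC9, and its change was above that of 99.1% and 99.0% of the 871 and 836 genes there. PDZK1IP1 lay in bin 8, with medians of 0.25 and 0.12, above 96.9% and 98.8% of the genes. Both genes were chosen for rising in both lines, so a high place in their bins came with the choice and is only a description. MAL2 in PC9 was in bin 2, where the median was -0.30, and stood above 97.2% of its genes. After offsets for GC content and transcript length were fitted in each library, the log2 fold change (± SE) of PDZK1IP1 in A549 was 0.74 ± 0.128 and that of MAL2 in PC9 was 0.76 ± 0.0619. MALL was then at 1.13 in A549 and 0.89 in PC9, and PDZK1IP1 at 0.92 in PC9.

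**Figure D3:**
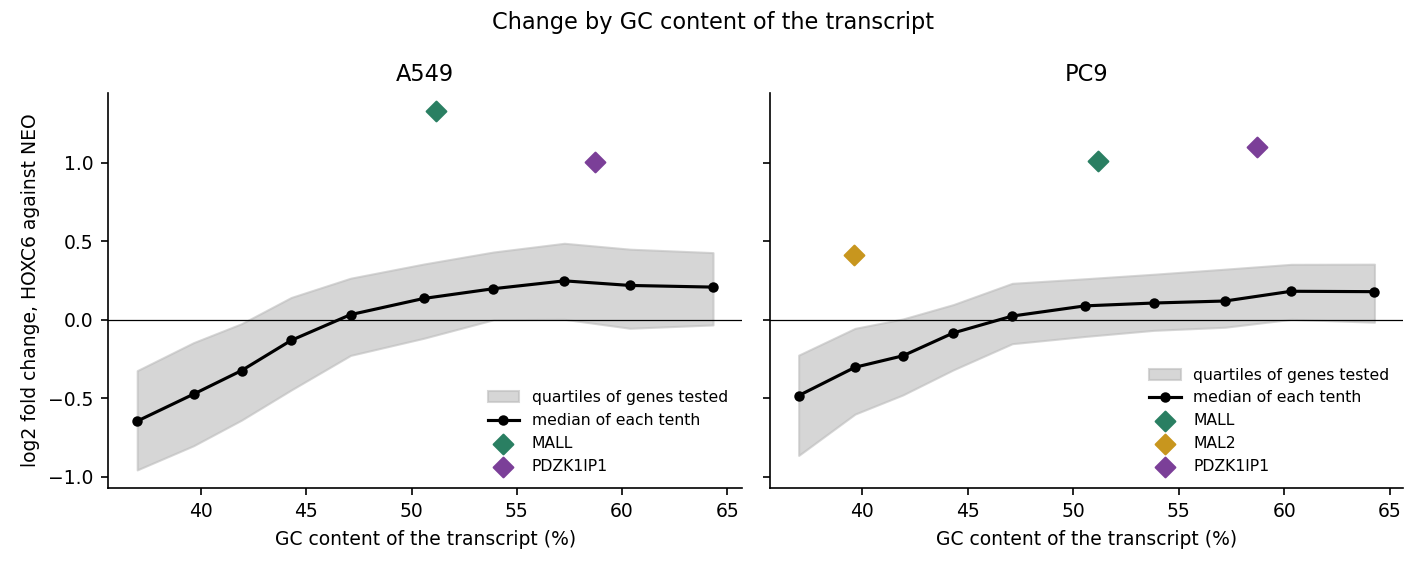
Log2 fold change between HOXC6 and NEO libraries (vertical axis) against the GC content of the transcript in percent (horizontal axis) in A549 and PC9, with the median (line) and quartiles (band) of the genes tested in 10 bins of GC content, and diamonds for the 3 genes. The median climbs from -0.64 to 0.25 at most in A549 and from -0.48 to 0.18 in PC9, and each diamond lies above the band at its GC content. MALL and PDZK1IP1 were chosen for their rise, so the place of their diamonds is only a description.

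Whether the HOXC6 difference itself differed between the lines was described by the interaction over 12 libraries. For MALL the difference, A549 minus PC9, was 0.36 on the log2 scale with a 95% confidence interval of -0.16 to 0.88. For PDZK1IP1 it was -0.05, with an interval of -0.44 to 0.35. Both intervals include 0 and also sizeable differences in at least 1 direction, so the lines are not shown to respond alike. Across all genes, 10.9% passed an adjusted p under 0.05 with the effect higher in A549 and 8.44% with it higher in PC9. For MAL2 no such value is given because of the floor in A549.

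The second comparison, of the 2 control groups, asked how the lines differed without HOXC6. MAL2 was at least 328-fold higher in PC9-NEO than in A549-NEO (adjusted p = 2.93e-31, edgeR's quasi-likelihood test), taking 3 counts in each A549-NEO library as the floor. The A549-NEO libraries held 2 MAL2 counts among 7897903. In the HOXC6 groups the bound was at least 285-fold, from 2 counts among 6141635. MALL was higher in A549-NEO by 0.63 on the log2 scale (SE 0.207, 95% CI 0.21 to 1.05, adjusted p = 0.00652), or 1.55-fold, and all 3 A549-NEO libraries lay above all 3 PC9-NEO libraries. It passed the threshold in 15 of 15 alternatives, with adjusted p from 0.00414 to 0.0347. PDZK1IP1 differed by -0.25 (SE 0.143, 95% CI -0.53 to 0.04, adjusted p = 0.121), lower in 3 of 3 A549-NEO libraries. Of all genes tested, 36.9% were higher in A549-NEO and 35.7% higher in PC9-NEO at an adjusted p under 0.05, so a difference of either sign was common between these lines. Scaling by library size alone moved the median of all genes from 0.02 to -0.10, and with it MALL was at 0.52 and PDZK1IP1 at -0.36 (adjusted p = 0.0253, against 0.0757 to 0.415 in the other alternatives).

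Over the 12 libraries, MALL and PDZK1IP1 had a Pearson r of 0.593 and a Spearman rho of 0.538 on log2(CPM + 1). Within A549 r was 0.8996 and within PC9 0.926 (6 libraries each, rho 0.600 in both). In PC9, r was 0.993 between MAL2 and PDZK1IP1 and 0.917 between MAL2 and MALL. The HOXC6 and NEO libraries form the 2 ends of these relations within a line, and the values are a description. The libraries of a group share their vector and line, and totals differ between libraries.

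The genes most like each member in their pattern over the 12 libraries were found by Pearson r among 9906 genes with a mean of at least 1 CPM. For MALL they were FN1 (r = 0.978), the gene of fibronectin, then RAB11FIP1 (0.963), a Rab11 effector in recycling endosomes, ARMH3 (0.963), SGK1 (0.959), a kinase that acts on sodium channels, and PLEKHG3 (0.957). Like MALL, these 5 were highest in A549-HOXC6, where FN1 had a mean of 4660 CPM against 2496 in A549-NEO, 3016 in PC9-HOXC6 and 1730 in PC9-NEO. SGK1 had 94.9, 22.8, 51.7 and 18.1 CPM in the same order of groups. For MAL2 the genes were BST2 (0.999), PCDH1 (0.998), KLK5 (0.997), CSTB (0.997) and PRSS8 (0.997), the last a protease of the apical surface. BST2, KLK5 and PRSS8 had at most 3 counts in every A549 library, while their PC9-NEO means were 198, 385 and 222 CPM. As MAL2 was at the floor in all A549 libraries, these r values mostly restate the gap between the lines. Between HOXC6 and NEO in PC9, the log2 differences were 0.49 for BST2, 0.46 for PRSS8 and 0.37 for PCDH1. They were -0.07 for KLK5 and 0.05 for CSTB. For PDZK1IP1 they included IGFBP6 (0.949), NIBAN2 (0.948), ZER1 (0.940) and SLC2A1 (0.931), the glucose transporter GLUT1. SLC2A1 had a mean of 211 CPM in A549-NEO and 337 in A549-HOXC6, and 285 and 420 in the PC9 groups. By Spearman's rho, 3 of the 5 genes were shared for MALL, 1 for MAL2 and 1 for PDZK1IP1.

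The genes of the table that lie nearest to the members, where given here, were low. RGPD5, beside MALL, had means of 1.26 to 2.81 CPM. TNFRSF11B and CCN3 beside MAL2 and CYP4A22 and TAL1 beside PDZK1IP1 had at most 4 counts in any library. The nearest of these to PDZK1IP1, TAL1, lies 25246 bp away and had 2 counts in all.

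Partners and relatives were read next, whatever their values, except MAL, PDZK1, INF2 and MUC1, which were not analysed here. Of the PDZK1IP1 partners, SLC5A2, the glucose carrier that PDZK1IP1 assists, had 505 ± 65.0 CPM in A549-NEO and 660 ± 73.8 in A549-HOXC6, a log2 difference of 0.35 ± 0.0901 (SE, adjusted p = 0.00305). In PC9 it had 296 ± 67.5 and 402 ± 68.3 CPM, a difference of 0.44 ± 0.110 (adjusted p = 0.00288), with libraries of the 2 groups overlapping. After the GC and length correction the differences were 0.12 (adjusted p = 0.156) and 0.24 (adjusted p = 0.118), and without replicate 1 of PC9-HOXC6 the latter call was also lost (0.31, adjusted p = 0.0669), as it was with DESeq2 (adjusted p = 0.209). Of its 4468 bp of exons, 1819 bp overlap exons on the opposite strand, so reads of the 2 strands may have been mixed. NHERF1 (SLC9A3R1), a PDZ scaffold under the apical membrane, differed by 0.12 in A549 and -0.04 in PC9 (adjusted p = 0.418 and 0.741), and after the correction fell by 0.24 in PC9 (adjusted p = 0.0309). SLC5A1, the intestinal glucose carrier, had at most 2 counts in any library.

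Of the MAL2 partners, the TPD52 family and CDC42 were detected in A549, where MAL2 was not. TPD52 had 83.0 ± 5.52 CPM in A549-NEO and 152 ± 15.1 in PC9-NEO, and TPD52L1 had 27.8 ± 3.68 and 70.6 ± 8.51. TPD52L2 had 114 ± 9.58 and 287 ± 4.44 CPM, and CDC42, a small GTPase, 86.8 ± 4.52 and 143 ± 14.6. All 4 were higher in PC9-NEO, with log2 differences, A549-NEO minus PC9-NEO, of -0.70 to -1.33 and adjusted p of 7.38e-08 or lower. With HOXC6, TPD52 differed by -0.13 in A549 and -0.04 in PC9 and CDC42 by 0.27 and 0.13, with adjusted p from 0.0753 to 0.785. After the GC and length correction TPD52 rose by 0.49 in A549 and 0.47 in PC9 (adjusted p = 0.00094 and 0.000505), and CDC42 rose by 0.73 and 0.47 (5.07e-07 and 0.00026), so for both genes the call turned on that choice. CDC42 in A549 also passed without replicate 3 of A549-HOXC6 (0.40, adjusted p = 0.00376) and in the model of 12 libraries (0.32, adjusted p = 0.0216). TPD52L2 rose in A549 (0.39 ± 0.105, adjusted p = 0.00395), at 0.15 and adjusted p = 0.213 after the correction, and TPD52L1 fell by 0.35 in PC9 (SE 0.129, adjusted p = 0.0408), a call lost in 8 of 15 alternatives. Among these was each fit without PC9-NEO replicate 3 or without any 1 PC9-HOXC6 library, with values of -0.24 to -0.39.

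Among relatives of MALL, PLLP, another MARVEL protein of rafts, had 10.9 ± 1.01 CPM in A549-NEO and 95.2 ± 9.86 in PC9-NEO, a log2 difference of -3.09 ± 0.161 (adjusted p = 3.5e-19). Of its exons, 1733 bp overlap exons on the opposite strand. With HOXC6 its differences were 0.57 in A549 and 0.10 in PC9 (adjusted p = 0.0808 and 0.553). CAV1, the coat protein of caveolae, had 164 ± 17.5 CPM in A549-NEO and 156 ± 8.44 in PC9-NEO. It fell by 0.30 in PC9 (SE 0.0899, adjusted p = 0.0128) and differed by 0.08 in A549 (adjusted p = 0.556). After the GC and length correction it was at -0.02 in PC9 and rose by 0.41 in A549 (adjusted p = 0.894 and 0.000423), and the PC9 call was lost without replicate 3 of PC9-NEO (-0.26, adjusted p = 0.0658) or of PC9-HOXC6 (-0.27, adjusted p = 0.0726) and with DESeq2 (-0.29, adjusted p = 0.0666).

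**Figure D4:**
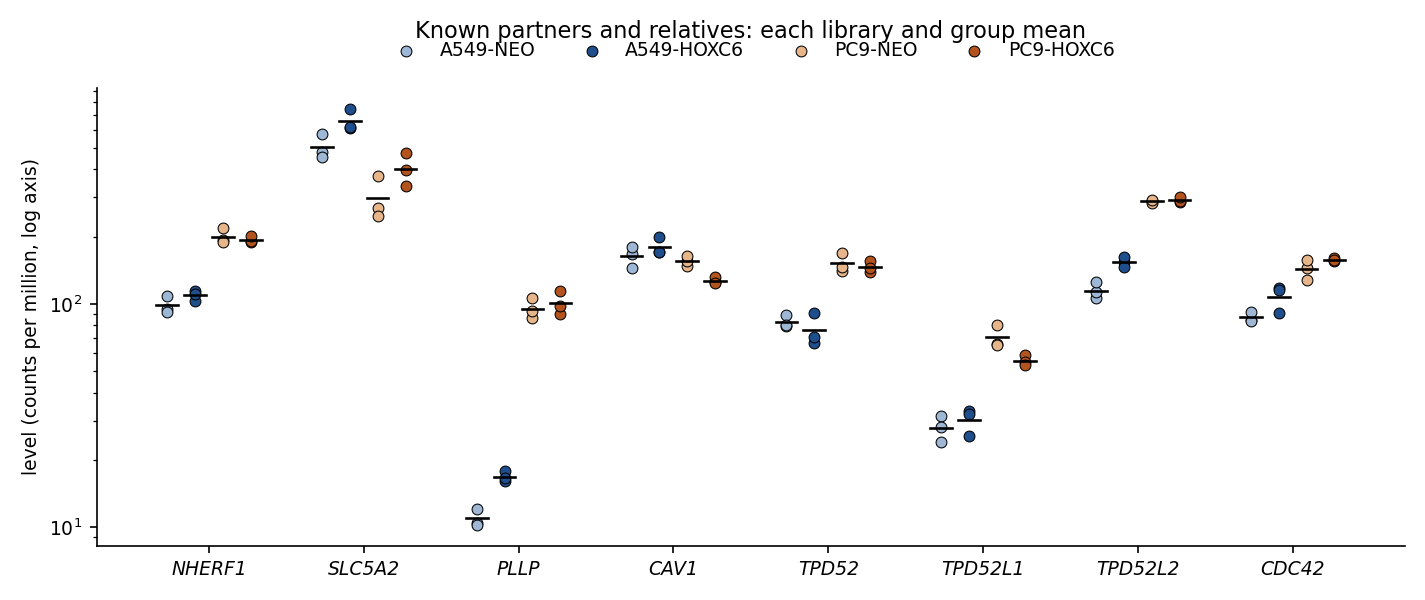
Level in CPM (vertical axis, log scale) of 8 partners and relatives of the 3 genes in each library (points) of the 4 groups, with a short line at the group mean. The TPD52 genes, CDC42, NHERF1 and PLLP are higher in PC9 than in A549, and the HOXC6 and NEO points of a line lie close together for most of the 8 genes.

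The wider setting was read from 9 lists of MAL family, raft, transcytosis, polarity, surface and junction genes without the 3 members, 235 genes of which 180 were in the table. In A549, 136 could be tested, and 31 (22.8%) were higher and 31 (22.8%) lower with HOXC6 at an adjusted p under 0.05, where 18.9% and 20.7% of all genes tested were. In PC9, 138 could be tested, and 42 (30.4%) were higher and 23 (16.7%) lower, beside 13.3% and 14.2% of all genes. With the fold threshold, 4 were higher (2.94%) and 2 lower (1.47%) in A549, where 1.7% of all genes were higher and 5.51% lower by it. In PC9, 0 were higher and 4 lower (2.9%), beside 0.962% and 3.56% of all genes. In A549 2 to 4 were higher and 4 to 6 lower in each fit that left out 1 library, and after the GC and length correction 2 were higher and 1 lower, with 1 lower in PC9. The median log2 fold change of the list genes was 0.07 in A549 and 0.11 in PC9, beside -0.00047 and -0.0046 over all genes. After the GC and length correction 28 (20.6%) were higher and 13 (9.56%) lower in A549, where the shares of all genes were 16.3% and 14.5%. In PC9 33 (23.9%) were higher and 15 (10.9%) lower, beside 10.9% and 9.44% of all genes. Scaling by library size alone gave 28 higher (20.3%) and 26 lower (18.8%) in PC9, beside 8.93% and 18.9%.

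In the MAL2 and transcytosis list the medians were -0.23 in A549 and 0.06 in PC9, and 3 of 24 genes rose and 7 fell in A549 while 4 of 26 rose and 6 fell in PC9. EXOC1, a subunit of the exocyst that tethers vesicles to the membrane, fell by 1.36 in A549 (SE 0.261, adjusted p = 0.000161) and by 0.85 in PC9 (SE 0.215, adjusted p = 0.00337), at -0.57 and adjusted p = 0.0563 in PC9 after the GC and length correction. RAB27B, a Rab protein of secretory vesicles, fell by 1.94 in PC9 (SE 0.339, adjusted p = 6.18e-05). In A549 it fell by 0.95 (SE 0.219, adjusted p = 0.00111), at -0.15 and adjusted p = 0.638 after that correction. SYTL2, a Rab27 effector, fell by 1.01 in PC9 (SE 0.164, adjusted p = 2.38e-05). VAMP7, a vesicle fusion protein named after its values were seen, had 0, 14 and 33 counts in the PC9 controls against 3, 8 and 1 with HOXC6, a difference of -1.96 (SE 0.724, adjusted p = 0.0423) that passed in 7 of 14 alternatives and not without PC9-NEO replicate 2 or 3 or PC9-HOXC6 replicate 1 or 3.

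Of the apical sorting adaptors, 3 of 13 rose and 6 fell in A549, and 2 rose and 2 fell in PC9. AP1M1, a subunit of a clathrin adaptor, rose by 0.61 in A549 (SE 0.123, adjusted p = 0.000283). PLEKHA5 fell by 1.10 in PC9 (SE 0.232, adjusted p = 0.000567). In A549 it fell by 0.73 (adjusted p = 0.0173), a call lost after the GC and length correction (-0.38, adjusted p = 0.232) and without replicate 1 of A549-NEO (-0.47, adjusted p = 0.189) or of A549-HOXC6 (-0.64, adjusted p = 0.0744).

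Of the polarity and ERM genes, 3 of 23 rose and 8 fell in A549, and 4 of 21 rose and 2 fell in PC9. CRB3, a protein that marks the apical domain, rose by 0.76 in PC9 (SE 0.177, adjusted p = 0.00163), from 25.9 ± 4.43 to 45.3 ± 7.94 CPM. In A549, at 2.77 ± 0.652 and 7.69 ± 2.95 CPM, it differed by 1.36 (SE 0.450, adjusted p = 0.0178), a call lost after the GC and length correction (1.09, adjusted p = 0.0579) and without A549-NEO replicate 2 (1.19, adjusted p = 0.0788) or A549-HOXC6 replicate 3 (1.01, adjusted p = 0.151). CDHR5, a cadherin of microvilli, fell by 1.48 in A549 (SE 0.250, adjusted p = 3.41e-05), from 24.7 ± 3.12 to 8.81 ± 1.31 CPM. PODXL, a sialomucin of apical membranes, rose by 0.84 in PC9 (SE 0.0871, adjusted p = 1.61e-08).

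Of the apical surface proteins, 1 of the 4 tested in A549 rose and 0 fell, and 6 of 10 rose and 1 fell in PC9. ANPEP, the aminopeptidase of brush borders, rose by 1.72 in A549 (SE 0.232, adjusted p = 1.44e-06), from 9.27 ± 0.833 to 31.6 ± 4.58 CPM. MUC4, a membrane mucin, rose by 0.39 in PC9 (SE 0.0619, adjusted p = 1.91e-05), from 794 ± 23.4 to 1035 ± 83.6 CPM, and was at 8.55 ± 1.52 CPM in A549-NEO. Of the basolateral proteins, 9 of 24 rose and 3 fell in A549, and 12 of 25 rose and 7 fell in PC9. SLC3A2, the heavy chain of amino acid carriers, rose by 0.71 in A549 (SE 0.0903, adjusted p = 5.67e-07) and fell by 0.35 in PC9 (SE 0.0771, adjusted p = 0.000906). ITGB4, the integrin of hemidesmosomes, rose by 0.72 in PC9 (SE 0.0627, adjusted p = 6.13e-10).

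Of the tight junction genes, 3 of 17 rose and 3 fell in A549, and 5 of 14 rose and 2 fell in PC9. JAM3, an adhesion molecule, rose by 1.72 in A549 (SE 0.454, adjusted p = 0.0035), from 2.14 ± 0.457 to 7.38 ± 1.94 CPM, and 1889 bp of its exons overlap exons on the opposite strand. ESAM, another adhesion molecule, was at 2.86 ± 1.44 and 6.57 ± 2.16 CPM in A549, with a difference of 1.18 (SE 0.457, adjusted p = 0.0406) that passed in 4 of 14 alternatives and fell short in 5 of the 6 fits that left out 1 library, all but the one without A549-HOXC6 replicate 2. TJP3, a scaffold of the junction, rose by 0.75 in PC9 (SE 0.0825, adjusted p = 4.21e-08).

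In the MARVEL family, 1 of 12 genes rose and 1 fell in A549, and 3 of 11 rose and 2 fell in PC9. MARVELD1 fell by 0.77 in A549 (SE 0.0943, adjusted p = 3.2e-07), and CMTM6 fell by 0.50 in PC9 (SE 0.129, adjusted p = 0.00393), at -0.09 and adjusted p = 0.664 after the GC and length correction. Of the raft and caveola proteins, 4 of 11 rose and 1 fell in A549, and 5 of 10 rose and 1 fell in PC9. FLOT2, a flotillin, rose by 0.67 in A549 (SE 0.0976, adjusted p = 4.63e-06), and EHD2, an ATPase at the neck of caveolae, rose by 0.50 in PC9 (SE 0.0893, adjusted p = 9.09e-05). Of the PDZ scaffolds and SGLT carriers, 4 of 8 rose and 2 fell in A549, and 1 of 8 rose and 0 fell in PC9. SLC5A6, a vitamin carrier, rose by 0.73 in A549 (SE 0.110, adjusted p = 7.66e-06).

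**Figure D5:**
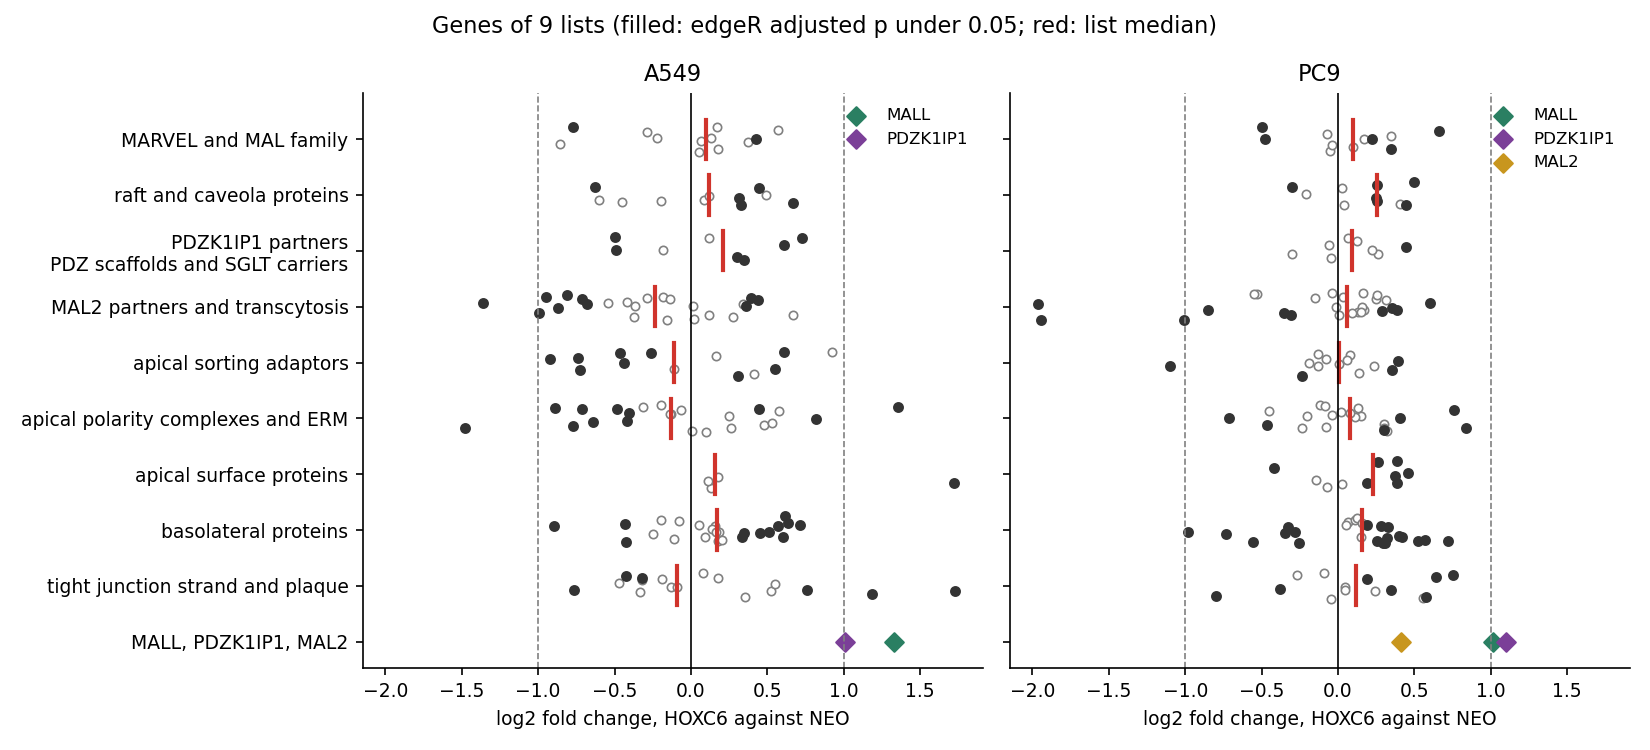
Log2 fold change between HOXC6 and NEO libraries (horizontal axis) of the genes of 9 lists (vertical axis) in A549 and PC9, with filled points at an edgeR adjusted p under 0.05, open points above it, red lines at the list medians, and diamonds for the 3 genes. Filled points above a log2 fold change of 1 number 4 in A549 and 0 in PC9, and the diamonds of MALL and PDZK1IP1, which were chosen for passing it, sit at 1.01 to 1.33.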

How the data were processed

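RNA was taken from A549 and PC9 cells with the HOXC6 or NEO vector (3 libraries each). The authors made libraries from polyadenylated RNA with a directional kit, mapped the reads to GRCh37.p13 with HISAT2 2.1.0 and counted them per gene with HTSeq 0.9.1 (versions from the submitters' processing notes). The deposited values are raw counts per gene, 1 column per library. 1 incomplete entry was left out, leaving 12584 genes, of which 12463 are in the annotation.

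Groups and replicate numbers came from the labels. Genes were filtered with filterByExpr, scaled by TMM and tested by the quasi-likelihood method of edgeR 4.0.16 under R 4.3.3, adjusted by Benjamini and Hochberg over all genes tested, on the 6 libraries of each comparison, or on 12 for the interaction. The SE is the absolute log2 fold change over the root of F. "Rose" and "fell" mean an adjusted p under 0.05. Alternatives were RLE size factors, library size only, no filter, at least 10 counts in every library, DESeq2 1.42.0, 12 libraries in one model, the replicate number as a block, offsets for GC content and length (mgcv 1.9.3), both together, and each library left out. Counts and calls of list genes and partners under these alternatives were added after seeing the data. The tests were tested on simulated data. Transcript similarity was searched with blastn 2.17.0.

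The members and lists were chosen with earlier results of these data known. Genes named were the members, their partners, the nearest gene on either side, the 5 genes most like each member and, per list and line, up to 2 called genes in each direction with separate groups or, with none called, the gene of lowest adjusted p. Some of these genes are not reported here. Counting error limits low counts.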

Additional observations from a re-analysis of the deposited data

Results flagged for a closer look

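The difference between the lines in the HOXC6 effect, A549 minus PC9 on the log2 scale, passed edgeR's interaction test for 12 of the 28 named list genes and partners tested, which were themselves named for their changes or roles. Of all 149 list genes tested, 17 (11.4%) were higher in A549 and 19 (12.8%) higher in PC9, beside 10.9% and 8.44% of all genes. Higher in A549 were SLC3A2 (1.11, adjusted p = 2.08e-08), SLC5A6 (0.84, adjusted p = 6.8e-05), FLOT2 (0.46, adjusted p = 0.0181), CMTM6 (0.71, adjusted p = 0.0282), CAV1 (0.43, adjusted p = 0.028), TPD52L2 (0.41, adjusted p = 0.0193) and JAM3 (1.87, adjusted p = 0.0462). Lower in A549 were MARVELD1 (-0.89, adjusted p = 7.61e-06), PODXL (-0.79, adjusted p = 8.87e-05), ITGB4 (-0.53, adjusted p = 0.000131), TJP3 (-0.90, adjusted p = 0.000116) and CDHR5 (-2.26, adjusted p = 0.00405). SLC3A2, SLC5A6, MARVELD1, PODXL, ITGB4 and TJP3 passed in 19 of 19 alternatives and CDHR5 in 18 of 18. FLOT2 and TPD52L2 passed in 16 of 19, CMTM6 and CAV1 in 13 of 19 and JAM3 in 8 of 18. The losses included fits that left out 1 library: FLOT2 was at 0.34 without A549-HOXC6 replicate 3, 0.43 without PC9-NEO replicate 3 and 0.41 without PC9-HOXC6 replicate 2. TPD52L2 was at 0.35 without A549-NEO replicate 1. JAM3 had 35, 16 and 6 counts in PC9-NEO, and its difference was 0.999 without PC9-NEO replicate 1, and it passed in 3 of the 12 fits that left out 1 library. CMTM6 fell short without A549-NEO replicate 3, A549-HOXC6 replicate 1 or 2, PC9-NEO replicate 2 or 3, or PC9-HOXC6 replicate 1 (0.57 to 0.69), and CAV1 without A549-NEO replicate 3, A549-HOXC6 replicate 2, PC9-NEO replicate 3, or PC9-HOXC6 replicate 1 or 3 (0.35 to 0.42). CDHR5 was at 2.22 ± 1.74 CPM in PC9-NEO.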

How the results depend on the processing

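Under 15 alternatives MALL and PDZK1IP1 kept the direction of their differences between HOXC6 and NEO and between the NEO groups, and MAL2 that between HOXC6 and NEO in PC9. The difference between the lines ranged from 0.23 to 0.48 for MALL and -0.19 to 0.05 for PDZK1IP1 over 19. With scaling by library size only, PDZK1IP1 passed between the NEO groups (-0.36) and MAL2 in PC9 was at 0.33. With the GC and length correction, and with it and the replicate block, PDZK1IP1 was at 0.74 and 0.74 in A549 and at 0.92 and 0.93 in PC9, MAL2 in PC9 was at 0.76 and 0.76, and genes called lower with HOXC6 numbered 167 and 168 in place of 483 in A549 and 115 and 116 in place of 300 in PC9. With at least 10 counts in every library fewer genes could be tested, and the calls were 1112 higher in A549-NEO and 966 higher in PC9-NEO, 95 higher with HOXC6 in A549, and 52 higher and 181 lower in PC9. For the other shifts the cause was not tested. Leaving out 1 library gave MALL 1.20 to 1.46 in A549 and 0.93 to 1.10 in PC9, and PDZK1IP1 0.89 to 1.09 and 1.03 to 1.20. The mean correlation of deviations between libraries of the same number was 0.012 in A549 and -0.0041 in PC9, from 3 pairs in each line. No pairing by number was seen in these means, and whether a number marks a shared culture or batch is not known. With the replicate block MALL was at 1.33 in A549 and 1.01 in PC9. The block alone put PDZK1IP1 in A549 just under the fold threshold (0.99994) and changed no other call of a member. Depth limits MAL2 in A549, where levels at or under 3 counts, or 1.05 to 2.55 CPM, were taken as the floor.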
